A study of Mus musculus with 4 samples.

Results

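The genes described here encode the machinery that docks, primes and fuses secretory vesicles at the plasma membrane. They were chosen as a list of 44 symbols, and 43 of them named a row among the 22481 gene symbols of the deposited table. The remaining symbol, Stxbp3, had no row of its own, and 1 further gene, Rims1, was too low to be tested, which left 42 genes in the comparison. RNA sequencing was run on pancreatic islets from mice of strain 129sv at an age of 2 weeks. The mice were either knockout animals with the genotype label Ngn3Mettls KO (KO) or wild-type animals (WT). There were 2 libraries per genotype, and every library was made from a pool of over 400 islets. Nothing in the labels ties a pool to its own animals or litter, so all p-values measure the spread between these pools, which may be technical. The genotype name points to Neurog3 (Ngn3), a factor of endocrine progenitors, and to Mettl3 and Mettl14, which together form the methyltransferase of N6-methyladenosine (m6A) in mRNA. Neither the genes or exons removed nor the cells in which a Cre or other transgene was active could be taken from the sources used here.

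Islet endocrine cells store hormone in dense-core granules and release it when calcium enters the cell. A granule is brought to the membrane by Rab GTPases and their effectors, is primed by Munc13 and CAPS proteins, and fuses when a vesicle SNARE (VAMP) zips together with the plasma membrane SNAREs (a syntaxin and SNAP-25 or SNAP-23). Synaptotagmins sense calcium, complexins bind the assembled SNARE complex, Munc18 proteins chaperone the syntaxin, and NSF with its SNAP adaptors takes the spent complex apart. Neurons use much of the same set for synaptic vesicles, and the names of many of these genes come from there.

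After the authors' scaling was divided out, the 4 libraries held 4057727 to 5232337 fragments. Across all 12789 genes tested, edgeR's quasi-likelihood test called 29, with 17 (0.133% of the genes) higher and 12 (0.0938%) lower in KO. A call means an adjusted p (Benjamini-Hochberg) below 0.05. Levels of a gene between libraries are given as CPM, the TMM-normalised count scaled to a common total per library. A negative log2 fold change means a lower value in KO. Of the genes the genotype name points to, Mettl14 was at 14.1 and 15.6 CPM in KO against 21.4 and 21.7 in WT (adjusted p = 0.369 in edgeR). Mettl3 was at 18.6 and 17.1 CPM in KO against 29.3 and 17.1 in WT (adjusted p = 0.634 in edgeR), and as the deleted stretch is not known here, these gene totals do not check the deletion. The defining hormones of the islet were abundant in all 4 libraries. Summed over 10 beta cell markers, the level was 45055 and 46598 CPM in KO against 63713 and 47029 CPM in WT, and Nkx6-1 and Mafa were called lower in KO. Summed over 7 alpha cell markers, it was 48147 and 60733 CPM in KO against 42074 and 44227 CPM in WT, with 0 of the 7 called. The 2 markers of PP and epsilon cells summed to 1093 and 820 CPM in KO against 384 and 358 CPM in WT, and Ppy was called higher. Sums over the delta, acinar, ductal, immune, endothelial, mesenchymal and Schwann cell markers overlapped between the genotypes. Since these are bulk pools, fewer cells of a type and less RNA per cell cannot be told apart. The part of cell composition in the values of the exocytosis genes was not tested.

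No exocytosis gene passed the test between KO and WT islets, and most estimates were small. The count called was 0 of 42, against 0.227% of all genes tested. DESeq2 called 0 of the 42 and 1.20% of all genes, and limma on log2(FPKM + 1) called 0 of the 42 and 0 genes in all. The edgeR adjusted p-values of the 42 genes ran from 0.212 to 0.991. At an unadjusted p under 0.05, edgeR singled out 7 of the 42, or 16.7%, against 12.6% of all genes. Rab3b and Cplx2 had higher values in KO, a side that held 6.51% of all genes, and Syn1, Syp, Snap23, Stx1a and Rph3al had lower ones, a side that held 6.04%. DESeq2 and limma each put 8 of the 42 under the same unadjusted threshold, against 7.38% and 10.9% of all genes.

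**Figure D1:**
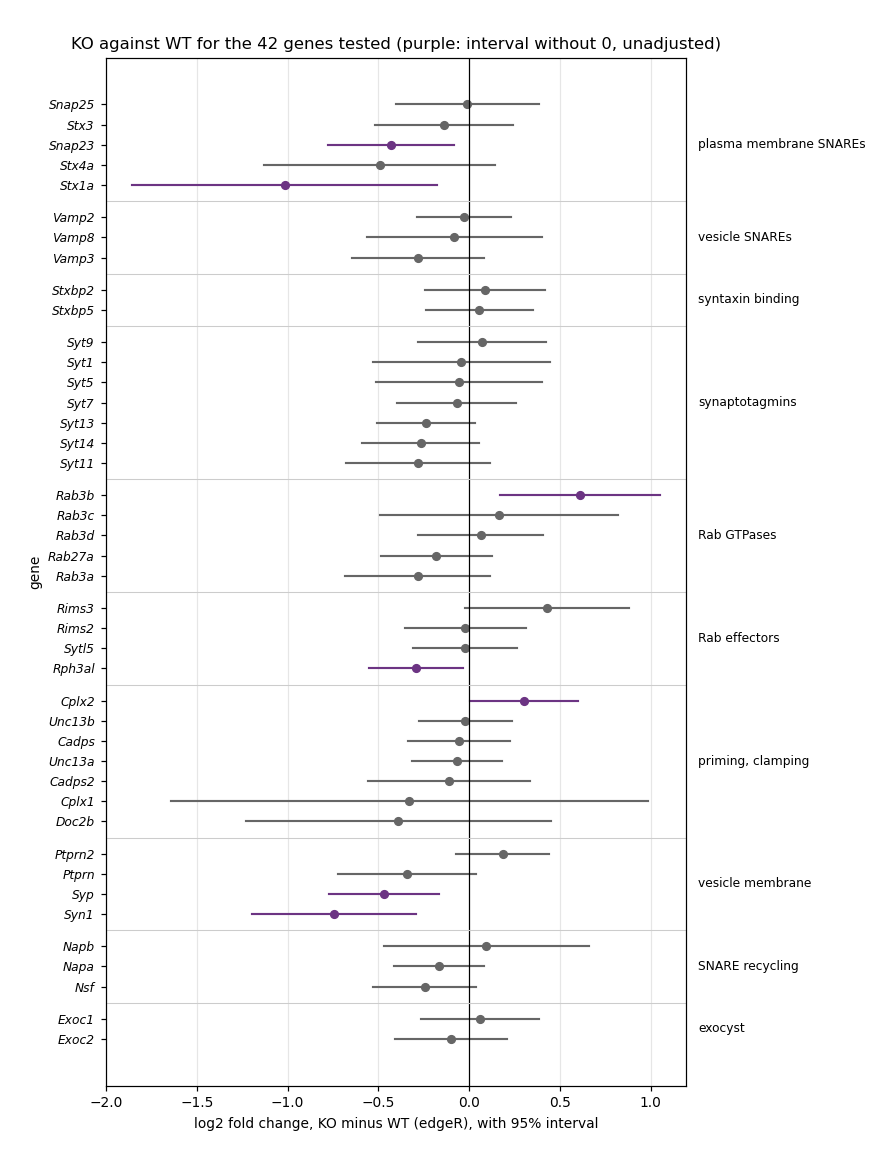
Log2 fold change, KO minus WT, of each of the 42 exocytosis genes tested (horizontal axis) by gene and role (vertical axis). Points are edgeR estimates from 2 libraries per genotype, lines are unadjusted 95% intervals, and the 7 purple ones leave out 0. The estimates run from -1.02 in Stx1a to 0.61 in Rab3b.

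The log2 fold changes of the 42 genes were spread narrowly around a value just below 0. The median was -0.07, against 0.0046 over all genes tested, and the middle part of the list, from its lower to its upper quartile, ran from -0.28 to 0.04. Negative estimates were found for 31 of the 42 genes, or 73.8%, against 49.3% of all genes tested. The CPM of the KO and WT libraries did not overlap for 17 of the 42, or 40.5%, against 44.9% of all genes. Of these 17, 14 were lower and 3 were higher in KO, and among all genes 22.2% were lower and 22.7% higher without overlap. The difference between group means exceeded the difference between replicates in both genotypes for 13 genes, or 31.0%, against 32.4% of all genes. The median of the 42 was -0.19 without WT replicate 1, -0.17 without KO replicate 2 and -0.04 without KO replicate 1.

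The fit also gave an interval for each difference, which rests on the spread between the pools of a genotype and does not bound the effect of genotype. The unadjusted 95% interval of the fold change lay within 2-fold in either direction for 36 of the 42 genes, and within 1.5-fold for 25. The standard error of the log2 fold change ran from 0.11 in Unc13a to 0.56 in Cplx1, with a median of 0.15. The 6 genes whose interval reached beyond 2-fold were Stx1a, Stx4a, Rab3b, Cplx1, Doc2b and Syn1. Counts were low for some of these. Cplx1 rested on 10 and 15 fragments in KO and 19 and 15 in WT, and Doc2b on 39 and 55 in KO and 64 and 67 in WT.

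**Figure D2:**
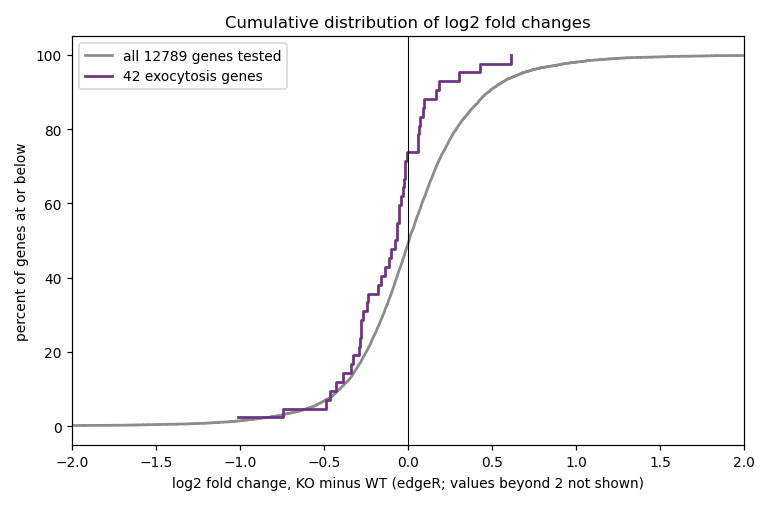
Cumulative percent of genes (vertical axis) at or below a log2 fold change, KO minus WT (horizontal axis, shown from -2 to 2), for the 42 exocytosis genes and for all 12789 genes tested. The line of the exocytosis genes crosses 0 at 73.8% of genes, and that of all genes at 49.3%.

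The 7 genes with an unadjusted p under 0.05 lie on 6 chromosomes, by GENCODE M21 (GRCm38). Syn1 (ENSMUSG00000037217) spans chrX:20860511-20921004 on the minus strand, and Syp (ENSMUSG00000031144) spans chrX:7638471-7653256 on the plus strand. Rab3b (ENSMUSG00000003411) lies at chr4:108879063-108943324, Snap23 (ENSMUSG00000027287) at chr2:120567671-120601255, Stx1a (ENSMUSG00000007207) at chr5:135023482-135051100 and Cplx2 (ENSMUSG00000025867) at chr13:54371349-54383917, all on the plus strand. Rph3al (ENSMUSG00000020847) lies at chr11:75830999-75938429 on the minus strand. The deposited locus was wider for Syn1, chrX:20797814-20987349, which takes in its neighbours. It was also wider for Rab3b, chr4:108879063-108972077, and for Syp, chrX:7638471-7657258.

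Levels between genes were compared by FPKM, the deposited value scaled to transcript length. Ptprn2 was the most abundant of the 43 genes in both genotypes, at 316 ± 1.56 FPKM in KO and 280.4 ± 6.10 FPKM in WT (mean ± SD, n = 2). It encodes phogrin (IA-2beta), a phosphatase-like protein of the granule membrane. Syt13 ranked next in both genotypes, with 223 ± 19.1 FPKM in KO and 265 ± 2.31 FPKM in WT. Cplx2, the complexin of neuroendocrine cells, ranked 3 in KO at 132 ± 17.0 FPKM and 4 in WT at 108 ± 5.80 FPKM, where Rab27a stood before it at 111 ± 15.7 FPKM. These neighbours were within their spread of each other in WT. Snap25 and Vamp2, the partners of the core fusion complex, ranked 5 and 6 in both genotypes. At the other end, Rims1 was below 1 FPKM in every library, and Cplx1 and Doc2b ranked just above it in both genotypes. Rims1 came to about 4 and 8 fragments in KO and 3 and 3 in WT, so no difference was detectable at this depth.

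**Figure D3:**
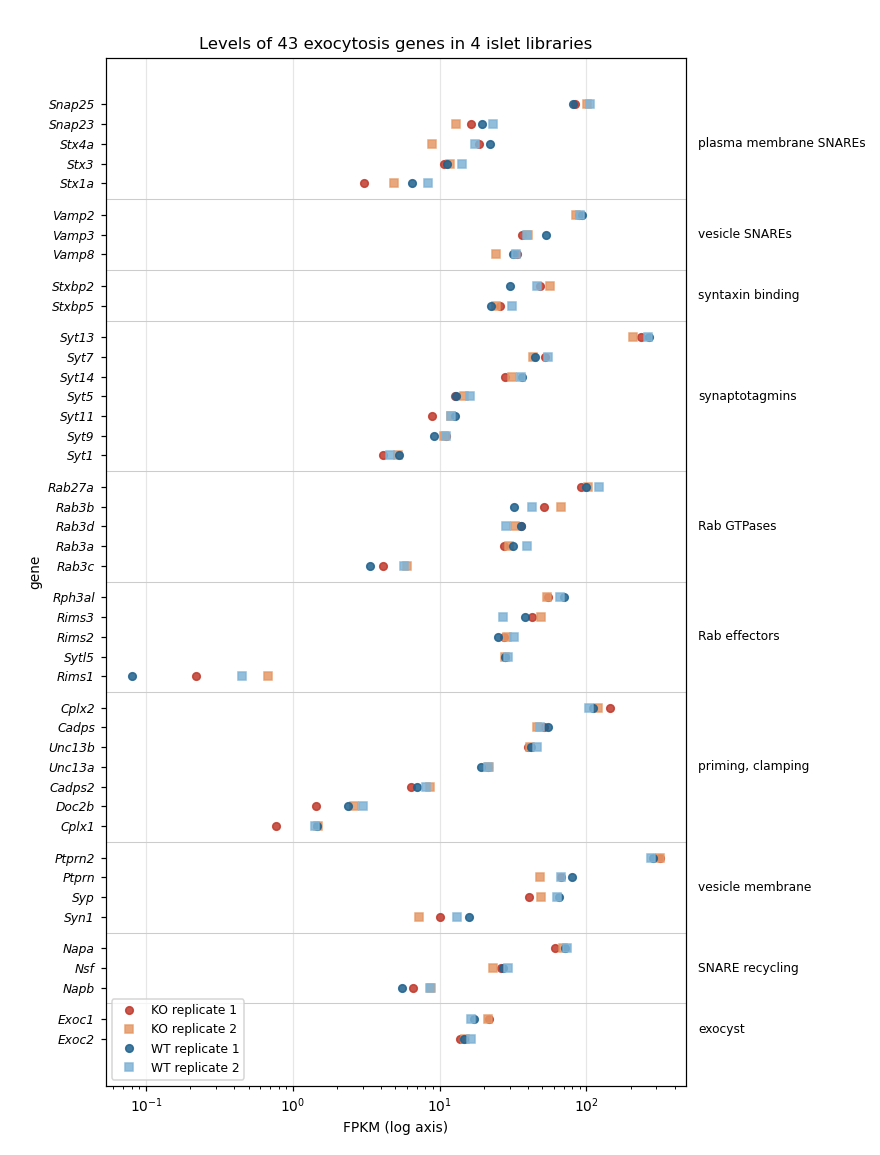
FPKM of each of the 43 exocytosis genes found in the table (horizontal log axis) by gene and role (vertical axis), with 1 point per library. Ptprn2 and Syt13 lie above 200 FPKM in all 4 libraries, and Rims1 lies below 1 FPKM in all 4.

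Of the plasma membrane SNAREs, Snap25 spanned the same range in both genotypes, and Snap23 and Stx1a had lower values in KO that did not pass the test. Snap25, the main SNAP-25 family SNARE of neuroendocrine cells, was at 231 and 289 CPM in KO against 225 and 298 in WT. The lowest and the highest library were both WT. Its log2 fold change was -0.01 ± 0.17 (SE), with a 95% interval of the fold from 0.757 to 1.30. Leaving out WT replicate 2 gave 0.21 and leaving out WT replicate 1 gave -0.21. Snap23, the widely expressed relative of Snap25, was at 36.9 and 36.1 CPM in KO against 46.1 and 52.5 in WT. Both KO libraries were below both WT libraries, and the log2 fold change was -0.43 ± 0.15 (SE; adjusted p = 0.310 in edgeR). Stx1a, the syntaxin of regulated exocytosis in neurons and beta cells, was at 7.42 and 8.03 CPM in KO against 11.2 and 20.1 in WT. The groups did not overlap, but the WT replicates stood farther from each other than WT replicate 1 did from either KO library. Its log2 fold change of -1.02 ± 0.36 (SE; adjusted p = 0.318 in edgeR) was the most negative of the 42. It rested on 39 and 32 fragments in KO and 58 and 87 in WT. Without WT replicate 2 the log2 fold change was -0.53, and without WT replicate 1 it was -1.39. Stx4a, a broadly used plasma membrane syntaxin, had a log2 fold change of -0.49, and that of Stx3, a syntaxin first known from polarised cells, was -0.14, both with overlapping libraries.

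All 3 vesicle SNAREs gave small estimates. Vamp2, the synaptobrevin that drives insulin granule fusion, was at 170.2 and 182 CPM in KO against 186 and 174 in WT. The groups overlapped and the log2 fold change was -0.03 ± 0.11 (SE), with a 95% interval of the fold from 0.820 to 1.17. Its sign was positive, at 0.01, without KO replicate 1 or without WT replicate 1. Vamp3 (cellubrevin), which serves constitutive traffic, was at 80.8 and 86.8 CPM in KO against 116 and 88.3 in WT. Its KO values were lower than both WT values, with a log2 fold change of -0.28 ± 0.16 (SE; adjusted p = 0.505 in edgeR). It was -0.08 without WT replicate 1 and -0.46 without WT replicate 2. Vamp3 lies inside Camta1 on the same strand, and whether the counting separated the 2 genes is not stated in the sources used here. The deposited locus of Vamp3, chr4:150914562-151861876, was far wider than the gene, at chr4:151047300-151057963 in GENCODE. Vamp8, the SNARE of late endosomes and of exocrine granules, had a log2 fold change of -0.08.

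The syntaxin-binding members gave estimates near 0 by counts. Stxbp2 (Munc18-2) was at 69.8 and 64.0 CPM in KO against 58.3 and 68.0 in WT, with a log2 fold change of 0.09 ± 0.14 (SE), which was -0.03 without WT replicate 1. Stxbp5 (tomosyn), which competes with vesicle SNAREs for the plasma membrane pair, was at 123 and 137 CPM in KO against 116 and 133 in WT. Its log2 fold change of 0.06 ± 0.13 (SE) was -0.02 without KO replicate 2, -0.05 without WT replicate 1 and -0.09 in limma on FPKM. Stxbp3 (Munc18-3) was not found by its symbol. A row named Stxbp3a carries the gene identifier that the reference names Stxbp3. That row, which was not counted among the 42, was at 45.3 and 38.4 CPM in KO against 54.8 and 56.9 in WT, with a log2 fold change of -0.42 ± 0.15 (SE; adjusted p = 0.320 in edgeR).

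Among the 7 synaptotagmins, Syt13 was the main transcript and 0 of the 7 were called. Syt13, an atypical synaptotagmin not thought to bind calcium, was at 1042 and 947 CPM in KO against 1188 and 1159 in WT. Both KO libraries were below both WT libraries, with a log2 fold change of -0.24 ± 0.12 (SE; adjusted p = 0.449 in edgeR). Syt7, a high-affinity calcium sensor of insulin granules, was at 399 and 342 CPM in KO against 351 and 426 in WT. The groups overlapped, with a log2 fold change of -0.07 ± 0.14 (SE) and a 95% interval of the fold from 0.760 to 1.20. Its sign was positive without KO replicate 2, at 0.04, and without WT replicate 2, at 0.08. Syt9, the fast calcium sensor described in rodent beta cells, had a log2 fold change of 0.07, and Syt1 and Syt5, of the calcium-binding kind, had values of -0.04 and -0.06. Syt11 and Syt14, which lack calcium binding like Syt13, had values of -0.28 and -0.27, and both were lower in both KO libraries than in both WT libraries.

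Of the Rab GTPases, Rab3b was the one with the lowest p. Rab3 proteins sit on secretory vesicles and hold them ready for release. Rab3b was at 76.3 and 97.6 CPM in KO against 48.4 and 65.4 in WT. Both KO libraries were above both WT libraries. Its log2 fold change was 0.61 ± 0.19 (SE; adjusted p = 0.271 in edgeR), with a 95% interval of the fold from 1.12 to 2.07. Without WT replicate 2 it was 0.84 and passed the threshold (adjusted p = 0.0439 in edgeR), in a fit that called 1.85% of all genes. In the other fits that left out a library, it was 0.42 without KO replicate 2, 0.40 without WT replicate 1 and 0.77 without KO replicate 1, and did not pass. Rab3b also overlaps a transcript on the opposite strand, 8030443G20Rik. Rab27a, which marks granules for docking, was at 286 and 322 CPM in KO against 314 and 376 in WT. The groups overlapped, and the log2 fold change was -0.18 ± 0.13 (SE; adjusted p = 0.616 in edgeR). Rab3a, Rab3c and Rab3d had log2 fold changes of -0.28, 0.17 and 0.06.

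Of the listed Rab effectors and RIM proteins, Rph3al had the lowest p. Rims3, a short RIM protein of the release site, was at 249 and 332 CPM in KO against 252 and 180.3 in WT. WT replicate 1 lay between the KO libraries, so the groups overlapped, and the log2 fold change was 0.43 ± 0.19 (SE; adjusted p = 0.420 in edgeR). Rph3al (Noc2), which binds Rab3 and Rab27 and is required for normal endocrine secretion in mice, was at 122 and 119 CPM in KO against 142 and 154 in WT. The KO values lay below the WT values, and the difference exceeded that between replicates. Its log2 fold change was -0.29 ± 0.11 (SE; adjusted p = 0.349 in edgeR). Rims2, the main long RIM of islets, and Sytl5, a synaptotagmin-like Rab27 effector, were at -0.02 and -0.02.

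Among the genes of priming and clamping, Cplx2 had the lowest p and the Munc13 genes and Cadps had estimates near 0. Cplx2 was at 844 and 722 CPM in KO against 662 and 606 in WT. Both KO libraries were above both WT libraries, with a log2 fold change of 0.30 ± 0.13 (SE; adjusted p = 0.385 in edgeR) and a 95% interval of the log2 fold change from 0.01 to 0.60. Cadps (CAPS-1), a priming factor of dense-core granules, was at 338 and 310.3 CPM in KO against 360.3 and 313 in WT. The groups overlapped, and the log2 fold change of -0.05 ± 0.12 (SE) was 0.04 without WT replicate 1 and 0.0034 without KO replicate 2. Unc13a and Unc13b, the Munc13 proteins that open the syntaxin, had log2 fold changes of -0.07 and -0.02, with 95% intervals of the fold from 0.803 to 1.13 and from 0.825 to 1.18. Cadps2, Cplx1 and Doc2b, a soluble calcium sensor, had values of -0.11, -0.33 and -0.39.

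The 4 genes of vesicle membranes and vesicle clusters included Syn1 and Syp, the lowest p-values of the list. The libraries of these 4 genes did not overlap between the genotypes, as was so for 44.9% of all genes, and 3 of them were lower in KO. Syn1 encodes synapsin, which tethers synaptic vesicles to the cytoskeleton. It was at 37.7 and 27.9 CPM in KO against 60.4 and 49.2 in WT. No KO value reached the WT range, and the log2 fold change was -0.75 ± 0.19 (SE; adjusted p = 0.212 in edgeR), with a 95% interval of the fold from 0.436 to 0.817. Without WT replicate 2, which leaves a single WT library, it was -0.88. Without each of the other libraries in turn it ran from -0.55 to -0.99. Syn1 overlaps Timp1 and Araf on the opposite strand. The libraries were directional, but the strand setting of the counting is not stated in the sources used here, so reads of these neighbours cannot be told apart for certain.

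Syp encodes synaptophysin, a membrane protein of small clear vesicles. It was at 119.6 and 142 CPM in KO against 190.5 and 172 in WT. Again the KO range lay below the WT range, with a log2 fold change of -0.47 ± 0.13 (SE; adjusted p = 0.231 in edgeR) and a 95% interval of the fold from 0.587 to 0.890. Syn1 and Syp are also neuronal genes, and islets carry nerve endings and some attached ganglion cells. The 9 autonomic neuron markers summed to 185 and 214 CPM in KO against 145 and 183 in WT, and 0 of the 7 tested were called. The sums of KO replicate 1 and WT replicate 2 were nearly equal. Their largest parts were Elavl4 and Th. Elavl4 was at 81.2 and 94.3 CPM in KO against 74.3 and 106 in WT, and Th at 61.05 and 55.7 CPM in KO against 30.5 and 31.7 in WT. The part of nerve content in the values of Syn1 and Syp was not tested.

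Ptprn and Ptprn2, the paired phosphatase-like proteins of the granule membrane, had estimates of opposite sign. Ptprn (IA-2) was at 275 and 206 CPM in KO against 332 and 279 in WT. KO replicate 1 came close to WT replicate 2 without reaching it, and the log2 fold change was -0.34 ± 0.16 (SE; adjusted p = 0.440 in edgeR). Ptprn2 was at 1751 and 1811 CPM in KO against 1601 and 1533 in WT. The KO range lay above the WT range, with a log2 fold change of 0.18 ± 0.11 (SE; adjusted p = 0.533 in edgeR).

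**Figure D4:**
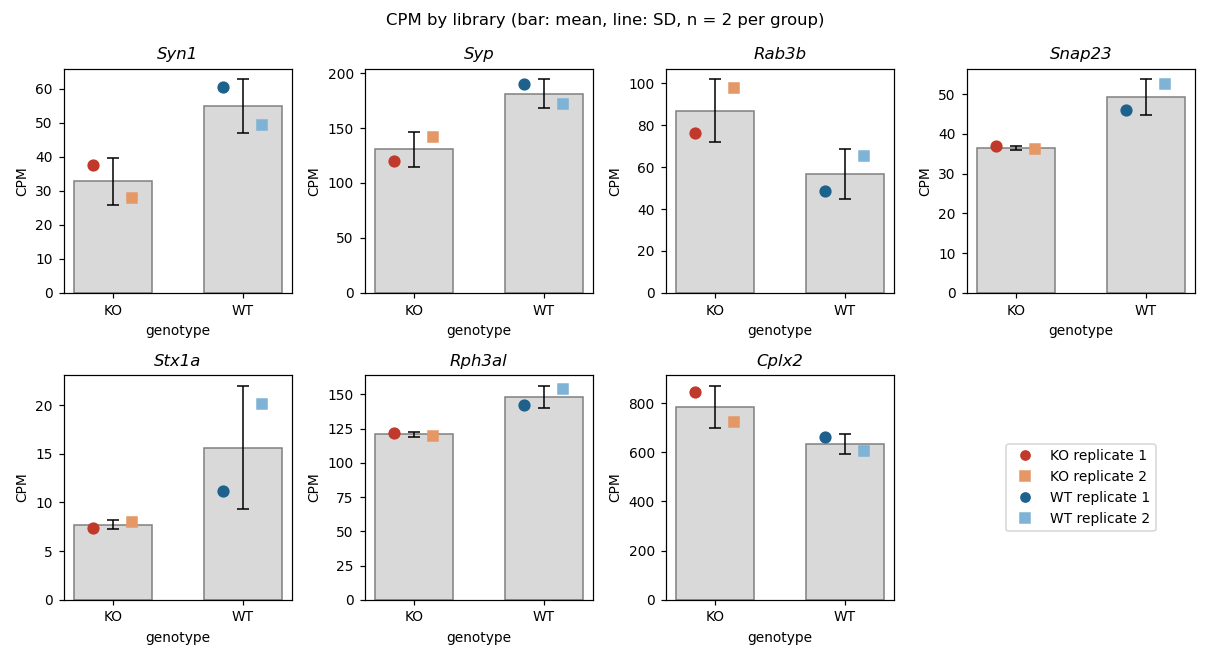
CPM (vertical axes, from 0) of the 7 exocytosis genes with an unadjusted edgeR p under 0.05, by genotype (horizontal axes). Bars are means, black lines are SD over n = 2 libraries, and points are libraries. In each of the 7 the KO and WT points do not overlap, with Rab3b and Cplx2 higher in KO and the other 5 lower, and none of the 7 passed the adjusted threshold.

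The promoters of Syn1, Ptprn2 and Unc13a are shown because they were the members with letters of the RE1 element. RE1 is the site of the repressor REST, which keeps neuronal and endocrine vesicle genes silent in other tissues. Promoter windows from RefSeq (GRCm38.p6) were matched for 35 of the 44 listed genes, and each runs from 250 bases before the start of the gene to 50 after it. Both strands were searched for the letters of the left part of RE1 (TTCAGCACC), of its right part (GGACAGCGC), and of the cAMP response element (TGACGTCA). None of these motifs overlapped another where it was found. In the sequences, written in the direction of the gene, capitals mark these motifs, and on the opposite strand the left part reads GGTGCTGAA and the right part reads GCGCTGTCC.
Syn1, chrX:20920869-20921168, minus strand: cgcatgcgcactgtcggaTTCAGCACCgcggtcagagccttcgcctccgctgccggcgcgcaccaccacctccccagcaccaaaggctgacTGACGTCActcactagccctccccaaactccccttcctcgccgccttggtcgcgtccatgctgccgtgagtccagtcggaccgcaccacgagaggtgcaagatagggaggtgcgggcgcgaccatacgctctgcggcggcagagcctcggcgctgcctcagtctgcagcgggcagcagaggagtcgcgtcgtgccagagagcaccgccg
Ptprn2, chr12:116485470-116485769, plus strand: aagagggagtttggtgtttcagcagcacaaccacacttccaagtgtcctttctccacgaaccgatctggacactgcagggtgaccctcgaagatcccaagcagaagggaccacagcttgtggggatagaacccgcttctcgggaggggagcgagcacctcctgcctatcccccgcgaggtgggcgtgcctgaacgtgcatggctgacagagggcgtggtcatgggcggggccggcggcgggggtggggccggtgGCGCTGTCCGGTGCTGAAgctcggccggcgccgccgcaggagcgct
Unc13a, chr8:71671708-71672007, minus strand: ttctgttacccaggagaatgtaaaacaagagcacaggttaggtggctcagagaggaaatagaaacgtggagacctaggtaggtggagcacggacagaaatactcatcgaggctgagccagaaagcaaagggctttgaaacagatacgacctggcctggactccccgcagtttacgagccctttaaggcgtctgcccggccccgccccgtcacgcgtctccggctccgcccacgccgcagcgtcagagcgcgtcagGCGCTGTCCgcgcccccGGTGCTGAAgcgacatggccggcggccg

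The left part of RE1 was in 3 of the 35 windows, or 8.57%, against 0.371% of all 32851 windows, and the right part was in 2 of the 35, or 5.71%, against 0.405%. Both parts were in Ptprn2 and Unc13a, and in 5 windows of the whole set. In Unc13a the parts were 8 bases apart, and in Ptprn2 they adjoined with 0 bases between them. Both lay just after the start of the gene and on the opposite strand. In Syn1, counted from the start of the gene as 0, the left part lay at -232 to -224 and the cAMP response element at -159 to -152. That element was in 2 of the 35 windows, in Syn1 and in Napa, or 5.71% against 1.79% of all windows. The GC box (GGGCGG), bound by Sp factors, was in 23 of the 35, or 65.7% against 35.7%, and the letters TATAAA in 2, or 5.71% against 13.6%. The median GC content of the 35 windows was 61.3%, against 52.7% for all windows. For each member the window nearest its GENCODE start was taken. The set of all windows was limited neither to the genes tested nor to a single window per gene, so these shares compare unlike sets. These matches describe the letters and do not show that a factor binds. The 3 genes shown had log2 fold changes of -0.75 (Syn1), 0.18 (Ptprn2) and -0.07 (Unc13a).

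Because the genotype name points to the m6A writer, the letters GGACT, a common form of the m6A motif, were counted in the GENCODE transcript with the longest coding sequence of each gene. The 43 genes held a median of 0.914 matches per kilobase, from 0 in Snap23 to 2.44 in Vamp8. The median over the 12084 genes tested that had a transcript was 1.05 per kilobase. Methylation itself was not measured in these libraries.

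The genes that recycle SNAREs and tether vesicles gave small estimates. Nsf, the ATPase that takes SNARE complexes apart, was at 95.7 and 89.6 CPM in KO against 104 and 115 in WT. The KO libraries had the lower values, with a log2 fold change of -0.24 ± 0.12 (SE; adjusted p = 0.461 in edgeR). Napa, the alpha-SNAP adaptor of Nsf, was at 134 and 137 CPM in KO against 149.8 and 154 in WT. Again both KO libraries were lower, with a log2 fold change of -0.17 ± 0.11 (SE; adjusted p = 0.568 in edgeR). Napb, the beta-SNAP form, had a log2 fold change of 0.09. Exoc1 and Exoc2, which belong to the exocyst complex that tethers vesicles to the plasma membrane, had log2 fold changes of 0.06 and -0.10. Exoc1 was at 60.1 and 55.9 CPM in KO against 52.9 and 58.5 in WT, and Exoc2 was at 69.2 and 76.8 CPM in KO against 74.1 and 82.3 in WT. Both overlapped, and the sign of Exoc1 was negative without KO replicate 1, and without WT replicate 1 it was -0.02.

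Paralogs within a family can stand in for each other, so each was also expressed as a percent of the summed FPKM of its family. In 8 of the 11 families the same gene led in all 4 libraries. Cplx2 made up 98.7% to 99.5% of the complexins, Napa 88.9% to 92.8% of the SNAP adaptors, Cadps 84.4% to 89.0% of the CAPS pair, and Syt13 64.1% to 68.7% of the synaptotagmins. Vamp2 made up 52.2% to 57.0% of the VAMPs. The leader changed between libraries in the Rab3, RIM and syntaxin families. In the Rab3 family, Rab3b made up 43.5% and 49.7% in KO and 31.2% and 36.8% in WT. It led both KO libraries and WT replicate 2, and in WT replicate 1 Rab3d led with 34.8%. Rab3a made up 23.1% and 21.9% in KO and 30.8% and 33.9% in WT. Neither share overlapped between the genotypes. The leader turned with the unit. By counts, which are not per length, Rab3d led in every library, at 50.7% and 41.1% in KO and 56.15% and 41.5% in WT. Rab3b then made up 24.1% and 28.1% in KO and 16.7% and 21.3% in WT.

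Snap25 made up 83.7% and 88.7% of the SNAP-25 pair in KO and 80.6% and 82.2% in WT, and Snap23 the rest. Ptprn2 made up 82.6% and 86.7% of its pair in KO and 78.2% and 80.3% in WT. Unc13b made up 65.1% and 65.7% of the Munc13 pair in KO and 68.5% and 68.3% in WT. By FPKM each of these shares was without overlap between the genotypes, though 2 shares that sum to a whole are 1 measurement. The Unc13b share turned with the unit: of the counts, which are not per length, it was 54.5% and 56.2% in KO and 54.2% and 54.9% in WT, with overlap. Over all families, 14 of the 32 shares did not overlap by FPKM and 13 by counts, with both shares of a pair counted. By CPM, a different measure, 44.9% of all genes tested did not overlap. In the RIM family WT replicate 2 stood apart, with Rims3 at 45.2% there and at 60.5% to 62.4% in the other 3 libraries. In the syntaxin family, Stx4a ran from 34.9% to 57.4% with both extremes in KO. By counts, Stx3 led that family in every library, at 58.1% and 66.1% in KO and 51.0% and 54.7% in WT. Shares were not tested.

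**Figure D5:**
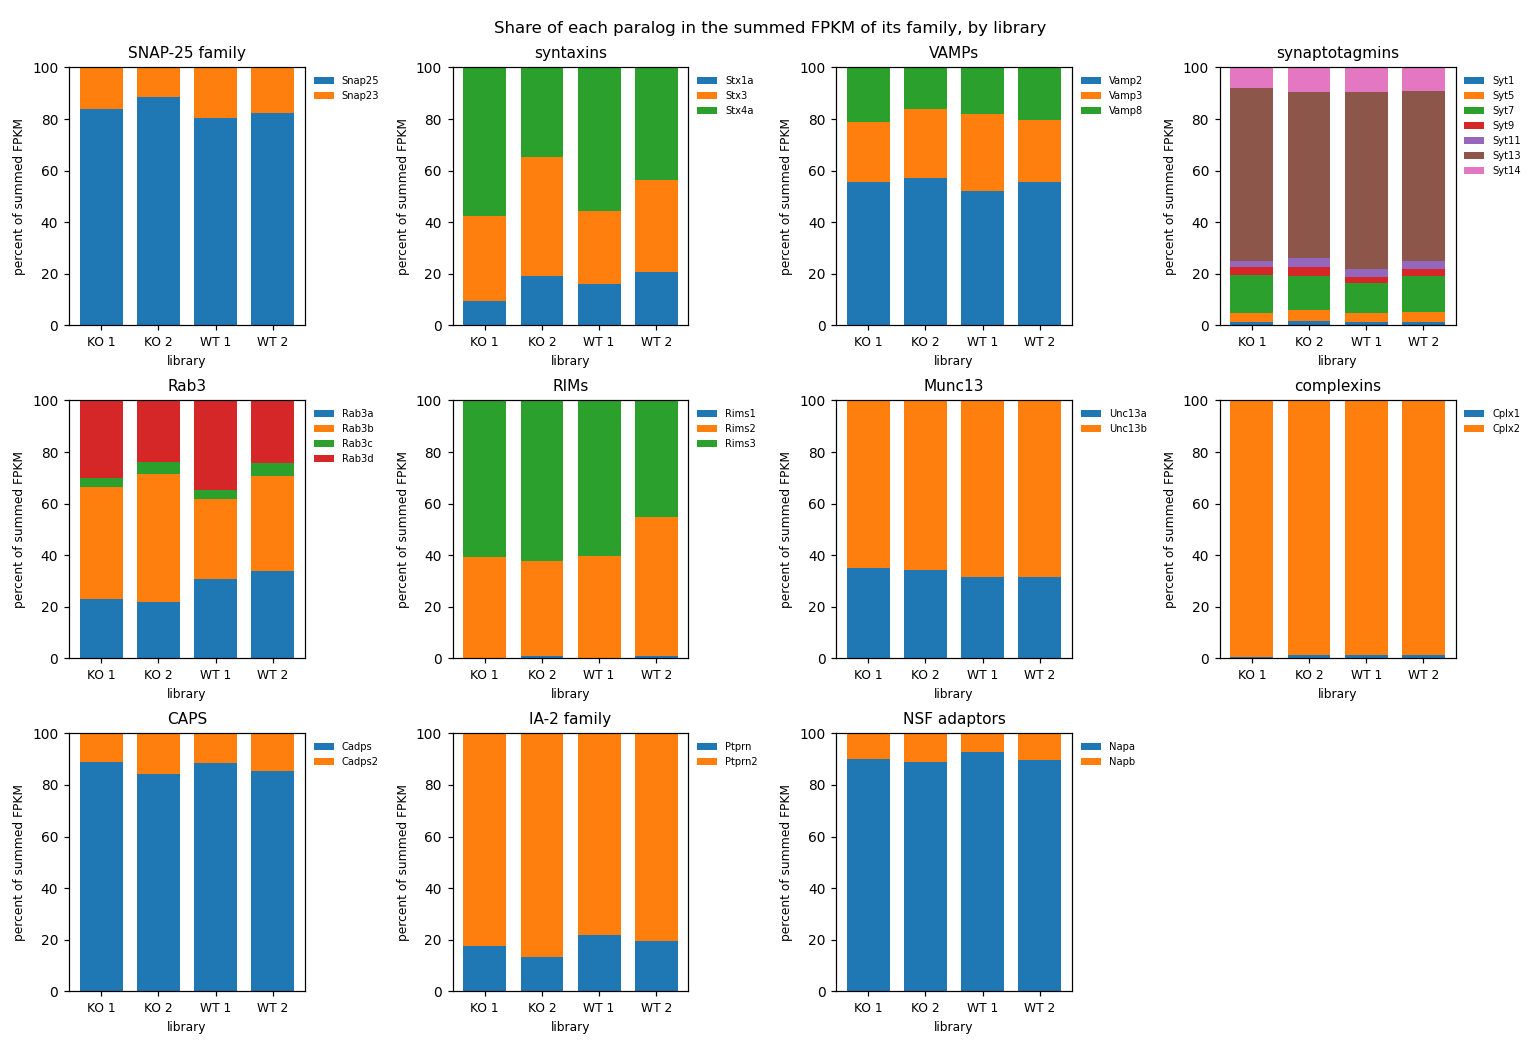
Percent of the summed FPKM of a family (vertical axes) that each paralog held in each of the 4 libraries (horizontal axes), for 11 families. Rab3b holds 43.5% and 49.7% of the Rab3 family in KO and 31.2% and 36.8% in WT, and Cplx2 holds at least 98.7% of the complexins in every library.

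The deposited counts and FPKM did not always give the same picture for a gene. Stxbp2 had a log2 fold change of 0.09 by counts and 0.47 by limma on log2(FPKM + 1). Exoc1 had 0.06 by counts and 0.35 by FPKM. Its FPKM was 21.8 and 21.4 in KO and 17.2 and 16.3 in WT, without overlap, while its CPM overlapped. Stx1a had -1.02 by counts, -0.77 by limma on log2(FPKM + 1) and -0.90 by limma on log2(FPKM + 0.1), so part of its gap came from the added constant. For these 3 genes the ratio of the count to the FPKM differed between libraries, so the authors' FPKM was not the count divided by a fixed length of the gene.

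The wider exocytosis pathway was read from a list of 83 other genes, of which 73 were tested. By edgeR 0 of the 73 were called, against 0.227% of all genes, and by limma 0 of the 70 that it tested. DESeq2 called 1 of the 73, against 1.20% of all genes. Their median log2 fold change was -0.10, and 44 were negative and 29 positive. At an unadjusted edgeR p under 0.05 there were 12, or 16.4% against 12.6% of all genes, with 6 higher and 6 lower in KO, and none of the 12 overlapped between the genotypes. Over the 73 genes, 39, or 53.4%, did not overlap, against 44.9% of all genes.

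Sytl4 (granuphilin), the Rab27 effector that docks insulin granules, was at 179.5 and 145 CPM in KO against 467 and 283 in WT. The groups did not overlap, with a log2 fold change of -1.21 ± 0.23 (SE; adjusted p = 0.122 in edgeR). Baiap3, a Munc13-related protein of dense-core vesicle traffic, was at 206 and 143 CPM in KO against 315 and 267 in WT. Its log2 fold change was -0.74 ± 0.18 (SE; adjusted p = 0.199 in edgeR), and it was the gene DESeq2 called (DESeq2 adjusted p = 0.00843). Syt16, an atypical synaptotagmin, was at 29.1 and 28.1 CPM in KO against 12.4 and 12.7 in WT. The replicates were close together in both genotypes, with a log2 fold change of 1.18 ± 0.20 (SE; adjusted p = 0.0982 in edgeR). Some genes of this wider list passed in edgeR without WT replicate 2 or without KO replicate 1. Those fits left a single library in a genotype, and both called more genes over the whole table than the fit of all 4 libraries.

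The other 9, of which 8 are named here, had edgeR adjusted p-values from 0.255 to 0.386. Of the scaffolds of the release site, Pclo (piccolo) had a log2 fold change of -0.39 and Bsn (bassoon) of 0.48. Of the other synapsins, Syn2 had -0.36 and Syn3 had 0.86. Stx8, an endosomal syntaxin, had 0.56, and Syt17 had 1.18. Doc2g had 1.84 and Mlph, a Rab27 effector of melanosomes, had -1.40, both from levels below 10 CPM in every library.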

How the data were processed

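RNA sequencing covered 4 islet libraries, 2 KO and 2 WT. Per the labels' protocols, ribosomal RNA was depleted from total RNA, and directional libraries were sequenced as 150-base paired ends. Per the submitters' processing notes, cutadapt 1.9.3, HISAT2 2.0.4, Cufflinks, Cuffdiff and the build mm10 were used. No annotation or counting option is given in the sources used here.

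Per the file headers, the authors deposited an estimated count and an FPKM per gene and library. The estimated counts the authors deposited were scaled per library: 94.4% to 94.8% of the low values were, within 0.1, multiples of 1 step per library (0.901, 1.15, 0.901 and 1.09 for KO replicate 1, KO replicate 2, WT replicate 1 and WT replicate 2). The depths in the report are scaled totals divided by that step. Counting noise and differences between pools limit the precision. The common biological variation (BCV) was 16.0%.

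Rows of 79 repeated symbols were summed and 1 empty line was left out. Counts were rounded, filtered with filterByExpr, scaled by TMM and tested with edgeR 4.0.16 (R 4.3.3), two-sided, genotype as the only term, adjusted by Benjamini-Hochberg over all 12789 genes. CPM is the count per fixed library total after TMM. Intervals are unadjusted 95% intervals from the same fit. DESeq2 1.42.0 and limma 3.58.1 (mean FPKM 1 or more) were alternatives, as were no filter, undoing the scaling, a replicate block and leaving out each library. The fits were tested on simulated data.

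The members, roles and lists were chosen with earlier results of these data known. Values per library are given for members with an unadjusted p under 0.05 and no overlap, and for the 2 with the highest FPKM of each role. Stx4a, Stx3 and other members are named with fewer values to account for the list. Gene positions came from GENCODE M21, promoter windows from RefSeq. Some genes that the lists hold are not reported here.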

Additional observations from a re-analysis of the deposited data

How the results depend on the processing

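With DESeq2, with no filter on low counts and with the library scaling undone, all 23 members described by library kept their direction and none passed the threshold, and limma on FPKM reversed 1, Stxbp5, at -0.0859 with a pseudocount of 1 and -0.0883 with 0.1. The count of genes called over the whole table, 29, depended on the tool: DESeq2 called 154, limma 0 with either pseudocount, and leaving out a library gave 10 to 245. Of the exocytosis genes, 0 were called in every one of these fits except without WT replicate 2, which called 2 (Rab3b and Syn1), so leaving out a library gave 0 to 2. Of the 73 other pathway genes, DESeq2 called 1, and leaving out a library gave 0 to 4. The median log2 fold change of the 42 members ran from -0.1896 to -0.0391 when a library was left out. Leaving out a library turned the sign of Snap25 (-0.21 to 0.21), Vamp2 (-0.08 to 0.0072), Stxbp2 (-0.0305 to 0.20), Stxbp5 (-0.0533 to 0.16), Syt7 (-0.21 to 0.0804), Cadps (-0.15 to 0.0390) and Exoc1 (-0.0229 to 0.14). The same gene led in 10 families, not 8, when shares were taken of counts, which are not per length. The cause of these shifts was not tested.

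The replicate numbers were shared by KO and WT, but nothing in the labels says that they mark a shared litter or day, and with 2 numbers the check of pairing is weak (the deviations of same-numbered libraries correlated at 0.185). The samples therefore shared only a number. With a replicate block edgeR called 214 genes, or 1.67% of those tested, 2 of the exocytosis genes (Rab3b at 0.61, adjusted p = 0.0449, and Syn1 at -0.75, adjusted p = 0.0451) and 3 of the other pathway genes (Baiap3, Syt16 and Sytl4). With 2 libraries per group, differences in genes of low count were poorly resolved. The unadjusted interval of the fold ran from 0.321 to 1.98 in Cplx1 and from 0.427 to 1.37 in Doc2b. Genes with higher counts and larger estimates also failed to pass in the main edgeR fit. Sytl4 had a log2 fold change of -1.21 (adjusted p = 0.122 in edgeR) and Rab3b of 0.61 (adjusted p = 0.271 in edgeR). A missing call alone therefore did not show that a gene differed by less than 1.5-fold.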
